A study of Mus musculus with 6 samples.

Results

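The genes described here are the calcium channels, calcium pumps and calcium stores of smooth muscle cells from the mouse aorta. They were chosen by biotype and symbol alone, as protein-coding genes named Cacna, Cacnb or Cacng, Ryr, Itpr, Atp2a, Atp2b or Atp2c, Trpc, Trpm or Trpv, Orai, Stim, Pln, Casq, Slc8a, Mcu or Micu. The rule found 55 of the 20199 genes listed, and 45 of these 55 passed the filter on low counts that left 15185 genes to test. It also takes in Trpc4ap, which encodes a protein that binds a TRPC channel and is not itself a channel. Bulk RNA was sequenced from cells of C57B6 mice 12 weeks old, in 3 libraries per genotype. The knockout libraries, labelled miR21 -/-, carried floxed miR-21 alleles, the fluorescent Cre reporter mTmG and the driver Myh11ERT2, and the wild-type control libraries carried mTmG and Myh11ERT2 without the floxed alleles. The driver is named for Myh11, the smooth muscle myosin gene, so deletion is directed to smooth muscle. No source used here says whether an inducer was given or whether each library came from its own mouse, and the microRNA itself was not analysed here, so its loss was not checked. Test results hence measure the spread between these samples, which may be partly technical.

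Smooth muscle shortens when cytosolic calcium rises. Calcium enters through voltage-gated channels of the L type and through cation channels of the TRP and ORAI families, and it is released from the sarcoplasmic reticulum by inositol trisphosphate receptors and ryanodine receptors. It is cleared by the SERCA pumps into that store, by the plasma membrane pumps and sodium-calcium exchangers out of the cell, and in part by the uniporter into mitochondria. STIM proteins sense an emptied store and open ORAI channels, calsequestrins buffer calcium inside the store, and phospholamban restrains SERCA.

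The deleted microRNA pairs with messenger RNAs through bases 2 to 8 of its mature strand, so the sequence is shown with the matching sites of the genes described here. A match is a description of the letters and is no evidence that a site is used. The RefSeq sequence of mmu-miR-21a-5p on GRCm38.p6, from chromosome 11, has its seed in capitals.
mmu-miR-21a-5p: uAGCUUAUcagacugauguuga

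The longest annotated 3′ untranslated region in GENCODE vM1 transcripts was searched for ATAAGCT and TAAGCTA, the 7-letter matches to the seed, which overlap in the 8-letter match ATAAGCTA. Of 53 of the 55 genes with such a sequence, tested or not, 7 held a match (13.2%). Among the 44 of them that were tested, 6 did (13.6%), against 11.9% of 11931 tested protein-coding genes. The median length searched was 1403 bases for the 44 and 1220 bases for the 11931, and the shares were not adjusted for length. The 8-letter match occurred once, in Cacna2d1, against 2.10% of the 11931 genes. The sites of 5 tested genes are given on the sense strand with the match in capitals. Cacna1e, which was not tested for its low counts, also held a match.
Cacna2d1: ccaaggacagaATAAGCTAaaggtgcttgt
Trpm7: aggccgcagagATAAGCTgttaaatagtgt
Orai1: cttctgtgagaATAAGCTttccctgttctt
Cacnb3: cctccccctgcATAAGCTgccgcccccgtg
Micu2: gcaagttttctTAAGCTAcgggatcttggg

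None of these 5 genes passed the test, and their fold changes had both signs. Their log2 fold changes, knockout over wild type, were 0.39 for Trpm7, 0.16 for Orai1, 0.091 for Cacna2d1, 0.0056 for Cacnb3 and −0.11 for Micu2. Over all tested protein-coding genes the median was 0.082 with and −0.0064 without a match. That difference was not tested. It was also not computed without wild-type replicate 1, a library whose values differed by transcript length. For the 5 genes, the log2 fold changes without wild-type replicate 1 were 0.20, 0.21, −0.015, −0.034 and −0.28 in the same gene order.

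No calcium-handling gene passed the test between the genotypes. In edgeR's quasi-likelihood test, 0 of 45 genes had an adjusted p under 0.05, as did 0 of the 15185 genes tested (0%), and the smallest adjusted p among the 45 was 0.778. DESeq2 also called 0 of the 45, where it called 0.454% of all genes, and limma voom called 0 of the 45 and 0% of all genes. At an unadjusted p under 0.05, edgeR listed 2 of 45 (4.44%), against 6.29% of all genes tested, so the share was near the background. Both were higher in knockout, where 2.85% of all genes were listed as higher and 3.44% as lower (433 and 522 genes, or 643 and 376 with unscaled library totals). DESeq2 listed 3 (6.67%, background 6.34%) and limma voom 5 (11.1%, background 6.52%). An absolute log2 fold change over 0.5 was reached by 6 of 45 genes (13.3%), against 9.62% of all genes. The fitted mean was higher in knockout for 27 of 45 genes and lower for 18, against 49.9% higher over all genes, and the median log2 fold change (log2FC) was 0.091 against −0.00078 over all genes. Without wild-type replicate 1 the median was 0.025.

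**Figure D1:**
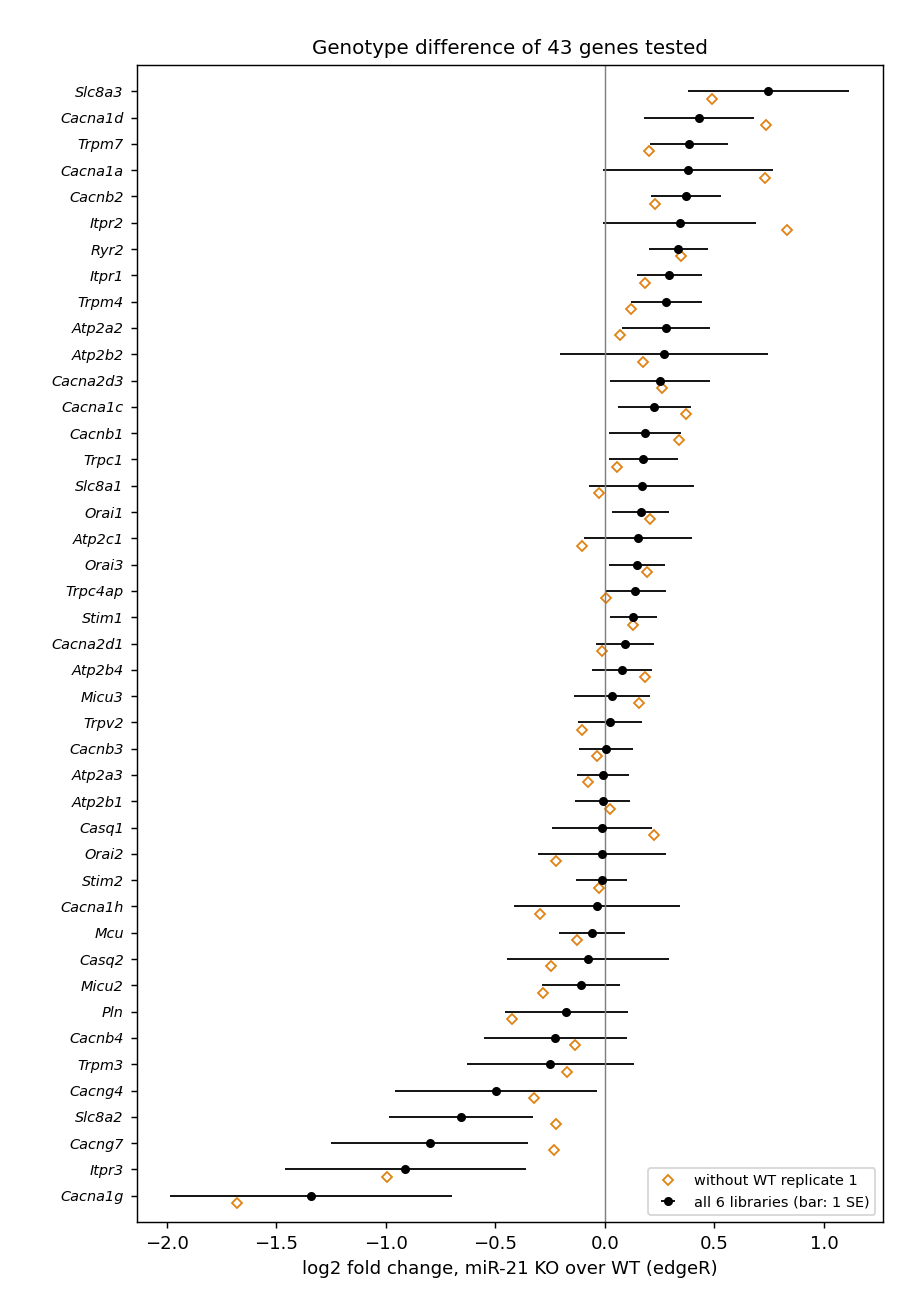
Log2 fold change (knockout over wild type, horizontal axis) of 43 of the 45 tested genes, ordered by value, from edgeR. Filled points with bars of 1 SE use all 6 libraries and open diamonds leave out wild-type replicate 1. Values run from 0.75 for Slc8a3 to −1.34 for Cacna1g, and Atp2a2 lies at 0.28 with all libraries and at 0.07 without wild-type replicate 1.

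Library totals ran from 17216701 to 27568002 counts in knockout and from 17123748 to 28610649 in wild type. Wild-type replicate 1 was unlike the other 5 libraries. Calcium-handling genes together took 0.348%, 0.328% and 0.327% of counts in knockout replicates 1 to 3, and 0.238%, 0.301% and 0.314% in wild-type replicates 1 to 3. Wild-type replicate 1 had the lowest value of the 6 libraries for 19 of the 45 genes (42.2%), against 32.4% of all genes, and the highest for 9 (20%), against 32.1% of all genes. Other libraries departed from the background too. Wild-type replicate 3 was lowest for 12 genes (26.7%), against 13.3% of all genes, and knockout replicate 2 was highest for 12 (26.7%), against 14.7%. By transcript length, wild-type replicate 1 differed as well. Relative to the other two wild-type libraries, its median log2 difference was 0.22 over the tercile of 12340 genes with the shortest transcripts (up to 2285 bases) and −0.26 over the tercile with the longest (3912 bases and more). Of the 45 genes, 24 lay in the longest tercile and 4 in the shortest, and their own median difference in that library was −0.16. In the knockout libraries the longest tercile deviated by 0.072, −0.0031 and −0.072. The part of this length pattern in the genotype differences was not tested. The plot of fold changes shows the value of each gene drawn without wild-type replicate 1, and the text gives it for some.

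**Figure D2:**
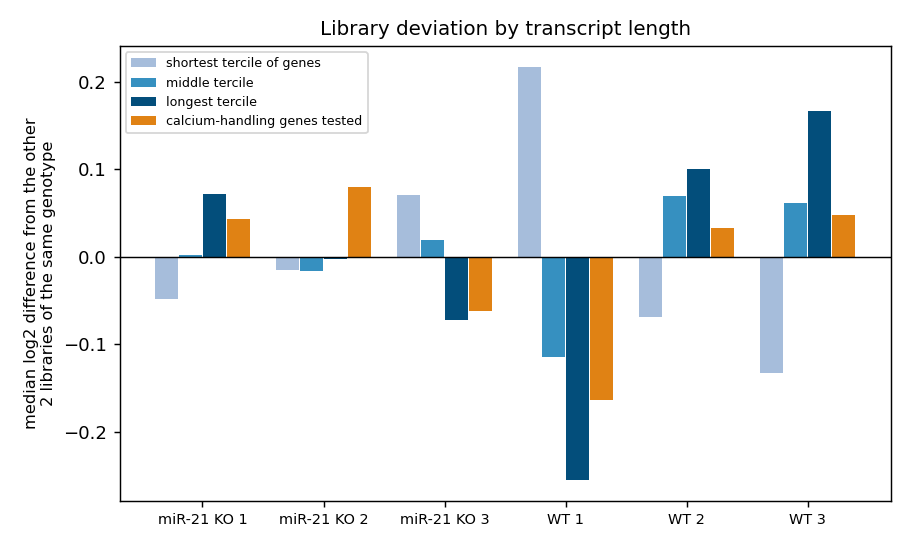
Median log2 difference (vertical axis) of each library from the other 2 libraries of its genotype, for genes in the shortest, middle and longest tercile by transcript length and for the 45 tested calcium-handling genes. In wild-type replicate 1 the shortest tercile lies at 0.22 and the longest at −0.26, and the calcium-handling genes at −0.16.

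Markers of other cell types were low beside those of smooth muscle. The 7 smooth muscle markers summed to 43421 to 44502 CPM in knockout and 41996 to 48283 CPM in wild type. The 5 cardiac markers listed summed to 18.2 to 21.7 CPM in knockout and 21.004 to 25.9 CPM in wild type, and 5 skeletal muscle markers to 7.47 to 15.03 CPM in knockout and 10.1 to 16.9 CPM in wild type. For endothelium the 7 markers summed to 36.0 to 48.2 CPM in knockout and 37.1 to 39.2 CPM in wild type, most of it Pecam1. Vwf was at 2.79 to 5.43 CPM over the 6 libraries, while Cdh5 and Kdr were at no more than 0.61 CPM in any library. All 4 endothelial markers tested had a higher fitted mean in knockout (median log2FC 0.29), with Pecam1 at 0.028. Among the fibroblast markers 4 of 6 were higher (median log2FC 0.032), as were 1 of 7 for smooth muscle (−0.12) and 1 of 5 cardiac (−0.24). For skeletal muscle 2 of 4 tested were higher (−0.27), for Schwann cells 1 of 3 (−0.36) and for leukocytes 1 of 2 (−0.38). For platelet and erythroid markers it was 2 of 4 (−0.25), and for neurons 0 of 1 (−0.058), against 49.9% of all genes. Fibroblast markers (6 genes) summed to 75.5 to 164 CPM in knockout and 125 to 129.3 CPM in wild type, leukocyte markers (6 genes) to 0.968 to 2.83 CPM in knockout and 2.19 to 3.39 CPM in wild type, Schwann cell markers (4 genes) to 20.4 to 23.9 CPM in knockout and 18.9 to 21.3 CPM in wild type, and neuronal markers (4 genes) to 48.4 to 66.1 CPM in knockout and 44.7 to 76.6 CPM in wild type, of which Uchl1 held all but a small part. Platelet and erythroid markers (5 genes) summed to 545 to 663 CPM in knockout and 259 to 801 CPM in wild type, nearly all from the globin genes Hba-a1 and Hbb-bs, with the lowest value in wild-type replicate 1. The adipocyte markers were not analysed here. Kdr was at 0 in knockout replicate 1 and in wild-type replicate 1, and the macrophage marker Adgre1 was at 0 in 4 of 6 libraries. No marker analysed was at 0 in all 6 libraries, but 20198 of the 20199 genes listed had at least 1 count. That outcome was thus nearly fixed beforehand. Of the markers chosen, 5 of 7 for cardiac and for skeletal muscle and 4 of 6 for neurons and for Schwann cells were analysed. In edgeR 0 of those tested passed, against 0% of all genes. The part of these other cells in the results was not tested. In bulk RNA, fewer cells of a type and less RNA per cell cannot be told apart.

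Levels are given as TMM-scaled CPM (counts divided by the scaled library size), with mean ± SD of 3 libraries where a mean is shown. Of the 55 genes, 41 averaged at least 1 CPM over the 6 libraries, 28 at least 10 CPM and 7 at least 100 CPM. To set genes against each other, CPM was divided by the length of the longest protein-coding transcript in kilobases. On that scale the SERCA pump gene Atp2a2 led at 250.5 ± 16.04 in knockout and 206 ± 57.1 in wild type CPM per kilobase, followed by Casq1 at 62.9 ± 12.5 in knockout and 63.6 ± 19.04 in wild type. Trpc4ap, Atp2a3, Orai3, Itpr1 and Stim1 came next, with means over all libraries between 23.1 and 35.2 CPM per kilobase. Among these 5 genes the ranges of neighbours in this order overlapped, except that the lowest Atp2a3 value lay above the highest Orai3 value.

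**Figure D3:**
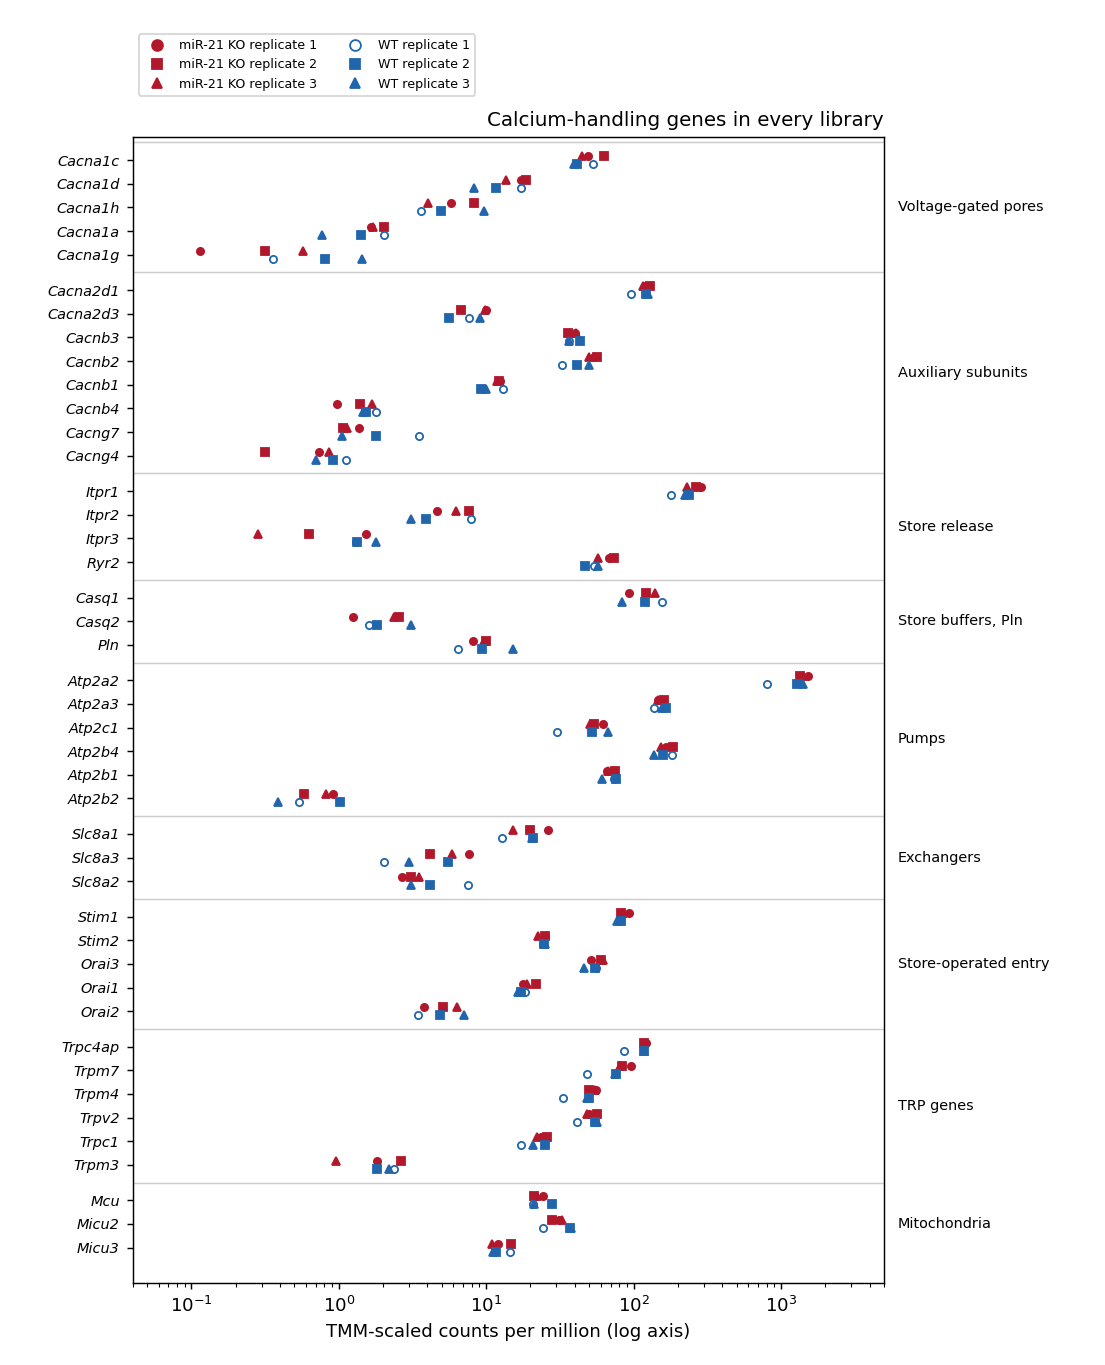
TMM-scaled CPM (log axis) of 43 of the 45 tested genes in each of the 6 libraries, grouped by role, with knockout in red above wild type in blue and replicates as circle, square and triangle. The open circle is wild-type replicate 1, which lies at 804 CPM for Atp2a2 and at the low end for Atp2c1, Trpm7, Trpm4 and Itpr1.

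Among the pores of the voltage-gated channels, Cacna1c, which encodes the main L-type pore of arterial muscle and lies on mm10 chromosome 6 from 118587240 to 119196418, held the largest share in every library. Cacna1c was at 49.0, 63.0 and 44.9 CPM in knockout replicates 1 to 3, against 53.4, 41.4 and 39.4 CPM in wild-type replicates 1 to 3. The groups overlapped through wild-type replicate 1, which lay above knockout replicates 1 and 3 (log2 fold change 0.23 ± 0.17 SE, edgeR adjusted p = 0.783). Per length, Cacna1c made up 71.1% ± 1.30 in knockout and 71.1% ± 2.06 in wild type of the 6 pore genes. Cacna1d, the gene of another L-type pore, was at 17.4, 18.7 and 13.7 CPM in knockout replicates 1 to 3, against 17.2, 11.7 and 8.30 CPM in wild-type replicates 1 to 3. The knockout values lay above those of wild-type replicates 2 and 3, and wild-type replicate 1 lay among them (log2 fold change 0.43 ± 0.25 SE, edgeR adjusted p = 0.778). Without wild-type replicate 1, the log2FC of Cacna1d was 0.74 and that of Cacna1c 0.37, with edgeR adjusted p-values of 0.371 and 0.576. Both genes overlap genes on the other strand, Dcp1b for Cacna1c and Dcp1a and Chdh for Cacna1d, and no source used here says whether the counting used strand.

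The T-type pores, which open at lower voltages, were low. Cacna1h was at 5.75, 8.26 and 4.02 CPM in knockout replicates 1 to 3, against 3.63, 4.93 and 9.63 CPM in wild-type replicates 1 to 3, and its highest and lowest values were both in wild type (log2FC −0.036 ± 0.38 SE). Cacna1g had 2, 7 and 16 counts in knockout and 6, 16 and 41 in wild type. Its log2 fold change was the lowest of the 45 genes at −1.34 ± 0.64 SE, with overlap between the groups through wild-type replicate 1 (edgeR adjusted p = 0.778). Its log2FC was −1.98 without knockout replicate 3, −1.68 without wild-type replicate 1 and −0.76 without wild-type replicate 3. Cacna1a, the P/Q-type pore gene of nerve terminals, was at 1.65 to 2.02 CPM in knockout and 0.770 to 2.02 CPM in wild type (log2FC 0.38, and 0.73 without wild-type replicate 1). Cacna1e, the R-type pore gene, was not tested, with 0, 0 and 2 counts in knockout and 2, 5 and 5 in wild type.

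Auxiliary subunits carry the pore to the membrane and tune its gating. Cacna2d1, the alpha2delta subunit gene with the 8-letter miR-21 match shown above, was at 120.3, 129.6 and 115 CPM in knockout replicates 1 to 3, against 96.7, 121 and 125 CPM in wild-type replicates 1 to 3. The groups overlapped, and edgeR did not call it (log2 fold change 0.091 ± 0.13 SE, edgeR adjusted p = 0.867). Its log2FC was −0.015 without wild-type replicate 1. It made up 86.6% ± 2.80 in knockout and 87.9% ± 2.73 in wild type of the alpha2delta genes per length. Cacna2d3 was at 6.74 to 10.02 CPM in knockout and 5.59 to 9.03 CPM in wild type, while Cacna2d2 (at most 19 counts) and Cacna2d4 (at most 8) were not tested.

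Among the beta subunit genes, Cacnb3 and Cacnb2 were close to each other per length. Cacnb3 made up 44.5% ± 2.83 in knockout and 50.1% ± 4.33 in wild type, and Cacnb2 43.4% ± 2.67 in knockout and 37.6% ± 5.77 in wild type. Cacnb2 was one of the 2 genes with an unadjusted p under 0.05. It was at 54.3, 56.1 and 49.5 CPM in knockout replicates 1 to 3, against 32.6, 41.2 and 49.7 CPM in wild-type replicates 1 to 3. Wild-type replicate 3 overlapped the knockout values, and wild-type replicate 1 was lowest (log2 fold change 0.37 ± 0.16 SE, edgeR adjusted p = 0.778). Its log2FC was 0.23 without wild-type replicate 1. Cacnb2 overlaps other listed genes on both strands, among them processed pseudogenes and the antisense RNA gene Gm10848. Its deposited counts were not whole in any library, so they are uncertain. Cacnb3 was at 40.4, 36.0 and 40.8 CPM in knockout replicates 1 to 3, against 36.6, 43.5 and 36.6 CPM in wild-type replicates 1 to 3, with overlap between the groups (log2FC 0.0056 ± 0.12 SE). Cacnb1 was at 11.8 to 12.5 CPM in knockout and 9.25 to 13.1 CPM in wild type (log2FC 0.18). Cacnb4 (log2FC −0.23) averaged 1.34 ± 0.355 CPM in knockout and 1.59 ± 0.167 CPM in wild type. The gamma subunit genes were near the lower limit of testing: Cacng7 was at 1.08 to 1.37 CPM in knockout and 1.05 to 3.51 CPM in wild type with its highest value in wild-type replicate 1 (log2FC −0.80, and −0.23 without that library), and Cacng4 at 0.314 to 0.854 CPM in knockout and 0.700 to 1.13 CPM in wild type (log2FC −0.50). The ratio of Cacnb2 to Cacna1c per length was 1.99 ± 0.239 in knockout and 1.83 ± 0.629 in wild type, and that of Cacna2d1 to Cacna1c was 2.39 ± 0.271 in knockout and 2.67 ± 0.734 in wild type, with overlap between the groups in both.

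**Figure D4:**
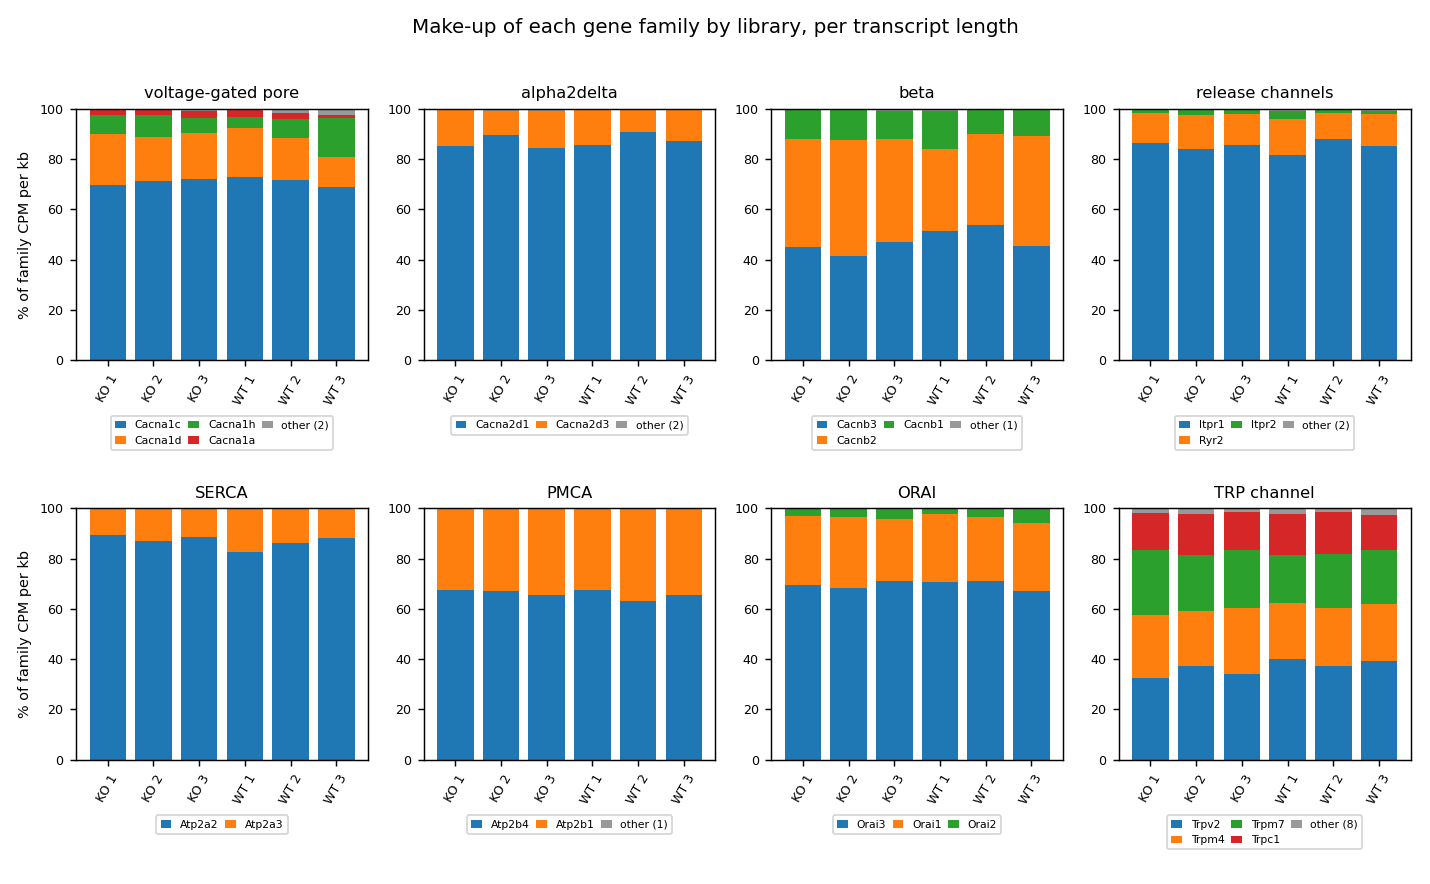
Share of each gene (percent, stacked bars) in the summed CPM per kilobase of its family, in each library, with knockout left of wild type. The leading gene of each of the 8 families, such as Cacna1c among the pores, was the same in the 6 libraries except in the beta family, where Cacnb3 and Cacnb2 were close, and Cacna1c held 71.1% in knockout and 71.1% in wild type.

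Of the release channels of the store, Itpr1 led in every library. Itpr1, the gene of the type 1 inositol trisphosphate receptor, was at 289, 266 and 231 CPM in knockout replicates 1 to 3, against 179, 238 and 224 CPM in wild-type replicates 1 to 3. Knockout replicate 3 lay within the wild-type range, and wild-type replicate 1 was lowest (log2 fold change 0.29 ± 0.15 SE, edgeR adjusted p = 0.778). Its log2FC was 0.18 without wild-type replicate 1. Per length it made up 85.3% ± 1.14 in knockout and 85.0% ± 3.11 in wild type of the release channels listed. Itpr2 was at 4.61, 7.68 and 6.23 CPM in knockout replicates 1 to 3, against 7.85, 3.92 and 3.08 CPM in wild-type replicates 1 to 3, with the highest value in wild-type replicate 1 (log2FC 0.34, and 0.83 without that library). Itpr3 had 27, 14 and 8 counts in knockout and 22, 26 and 51 in wild type (log2 fold change −0.91 ± 0.55 SE, edgeR adjusted p = 0.778). Its log2FC was −1.71 without knockout replicate 1 and −0.47 without knockout replicate 3. The Itpr3 value in knockout replicate 1 lay within the wild-type range and the other two knockout values lay below it.

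Ryr2, the ryanodine receptor gene known from heart and also used by arterial muscle, had the smallest p of the 45 genes. It lies on mm10 chromosome 13 from 11553102 to 12106945 and was at 68.6, 73.7 and 57.2 CPM in knockout replicates 1 to 3, against 53.7, 47.2 and 57.2 CPM in wild-type replicates 1 to 3. All 3 knockout values lay above the 3 wild-type values, but the lowest knockout value, 57.20 CPM, and the highest wild-type value, 57.17 CPM, were almost equal. The log2 fold change was 0.34 ± 0.13 SE, and it did not pass (edgeR unadjusted p = 0.0340, adjusted p = 0.778; DESeq2 adjusted p = 0.669). Leaving out each library in turn gave a log2FC of 0.26 to 0.44. The edgeR unadjusted p stayed under 0.05 without knockout replicate 3, wild-type replicate 1 or wild-type replicate 3. It did not without knockout replicate 1, knockout replicate 2 or wild-type replicate 2. Ryr3 was not tested, with 2, 9 and 8 counts in knockout and 11, 5 and 19 in wild type. Ryr1 was not analysed here. The ratio of Ryr2 to Itpr1 per length was 0.149 ± 0.0118 in knockout and 0.147 ± 0.0298 in wild type. The cardiac markers Myh6, of the cardiac myosin heavy chain, and Tnni3, of cardiac troponin I, were at no more than 1.96 CPM in any library. The remaining cardiac markers analysed were higher. Tnnt2 was at 4.27 to 9.40 CPM over all libraries, Actc1 at 3.99 to 9.66 CPM and Myl4 at 6.15 to 10.52 CPM. The part of cardiac cells in the Ryr2 level was not tested.

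**Figure D5:**
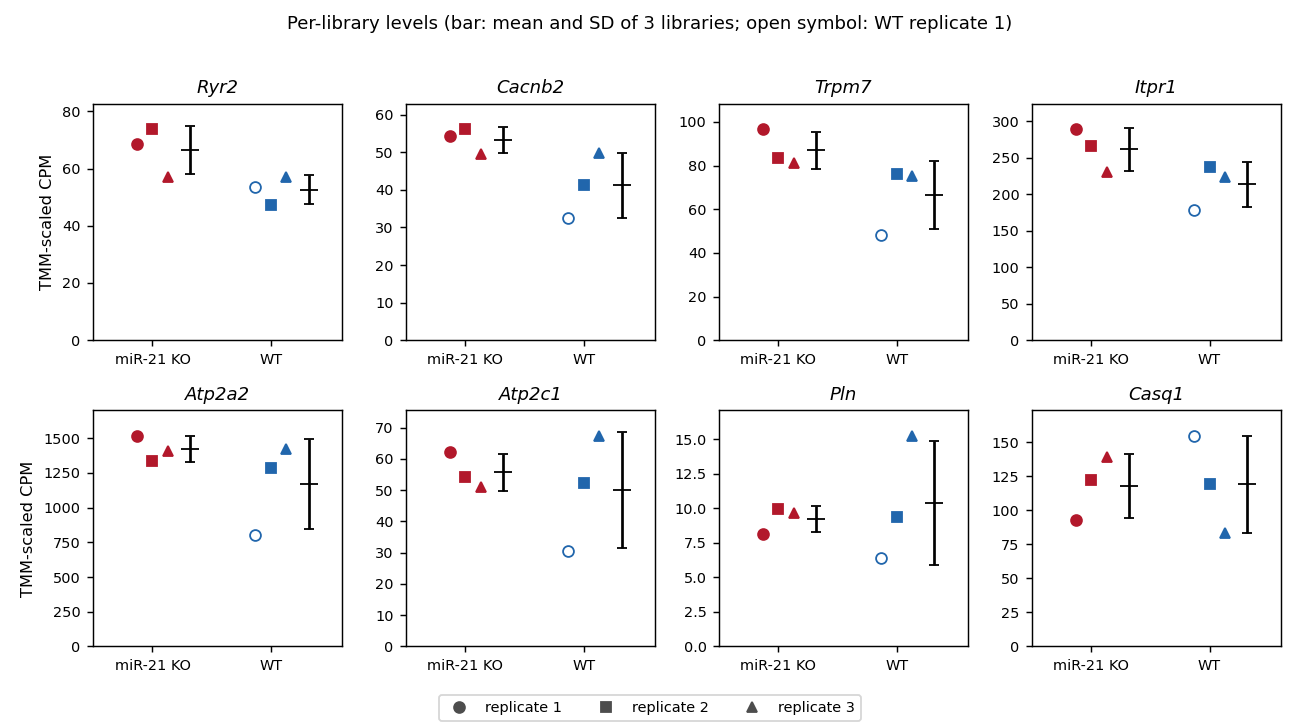
TMM-scaled CPM (vertical axis, from 0) of 8 genes in each library, knockout left of wild type, with mean and SD of 3 libraries beside the points. Ryr2 and Trpm7 do not overlap between the genotypes, and the open circle of wild-type replicate 1 is the lowest point for Cacnb2, Trpm7, Itpr1, Atp2a2, Atp2c1 and Pln and the highest for Casq1.

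The calsequestrin of these cells was mainly the form named for skeletal muscle. Casq1 was at 92.6, 122 and 139 CPM in knockout replicates 1 to 3, against 155, 119 and 83.5 CPM in wild-type replicates 1 to 3. The wild-type values enclosed the knockout values (log2FC −0.013 ± 0.23 SE, and 0.22 without wild-type replicate 1). Casq2, the form named for the heart, was at 1.25, 2.56 and 2.38 CPM in knockout replicates 1 to 3, against 1.61, 1.83 and 3.08 CPM in wild-type replicates 1 to 3 (log2FC −0.078 ± 0.37 SE). Per length Casq1 made up 98.8% ± 0.264 in knockout and 98.5% ± 0.995 in wild type of the calsequestrin genes. The skeletal muscle genes Acta1 and Tnnt3 were at no more than 2.85 CPM in any library, and Ckm, the muscle creatine kinase gene, at no more than 11.8 CPM. Casq1 overlaps an antisense RNA gene, Gm17224, and its deposited counts were not whole in any library.

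Pln, the gene of phospholamban, had a small part of the level per length of Atp2a2, the pump gene it acts on. It was at 8.14, 9.92 and 9.65 CPM in knockout replicates 1 to 3, against 6.42, 9.41 and 15.3 CPM in wild-type replicates 1 to 3, and the wild-type values enclosed the knockout values (log2FC −0.18 ± 0.28 SE). The log2FC was 0.22 without wild-type replicate 3 and −0.42 without wild-type replicate 1. Per length, the ratio of Pln to Atp2a2 was 0.0150 ± 0.00243 in knockout and 0.0199 ± 0.00417 in wild type, with overlap between the groups. Pln overlaps Cep85l on the other strand, so its counts are uncertain.

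Atp2a2, the gene of the SERCA pump that refills the store, had the highest level of the 55 genes both in CPM and per kilobase. It lies on mm10 chromosome 5 from 122453513 to 122502225 and was at 1517, 1336 and 1409.6 CPM in knockout replicates 1 to 3, against 804, 1287 and 1420.0 CPM in wild-type replicates 1 to 3. Wild-type replicate 1 held 0.59 of the mean of the other two wild-type libraries, of which replicate 3 lay within the knockout range and replicate 2 below it. The log2 fold change was 0.28 ± 0.20 SE (edgeR adjusted p = 0.782), and 0.071 without wild-type replicate 1. Atp2a3, the gene of another SERCA, was at 147, 162 and 147 CPM in knockout replicates 1 to 3, against 138, 165 and 156 CPM in wild-type replicates 1 to 3, with full overlap (log2FC −0.0086 ± 0.12 SE). It made up 11.7% ± 1.20 in knockout and 14.3% ± 2.81 in wild type of the SERCA genes per length. Atp2c1, the gene of the Golgi calcium pump, was at 62.3, 54.1 and 50.9 CPM in knockout replicates 1 to 3, against 30.4, 52.3 and 67.4 CPM in wild-type replicates 1 to 3. Its lowest and highest values were both in wild type (log2FC 0.15 ± 0.25 SE, and −0.11 without wild-type replicate 1), and it overlaps Aste1 on the other strand.

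No gene of the plasma membrane pumps or the exchangers, which move calcium out of the cell, passed the test. Atp2b4 was at 166, 184 and 153.5 CPM in knockout replicates 1 to 3, against 182, 158 and 138 CPM in wild-type replicates 1 to 3 (log2FC 0.077 ± 0.14 SE). Atp2b1 was at 66.4, 74.99 and 67.1 CPM in knockout replicates 1 to 3, against 73.2, 76.1 and 60.7 CPM in wild-type replicates 1 to 3 (log2FC −0.0099 ± 0.13 SE). The groups of both genes overlapped throughout. Per length Atp2b4 made up 66.7% ± 1.08 in knockout and 65.3% ± 2.05 in wild type of the pump genes of this family, while Atp2b2, a form of neurons and hair cells, was at no more than 1.02 CPM. Of the sodium-calcium exchangers, Slc8a1 was at 26.3, 19.8 and 15.2 CPM in knockout replicates 1 to 3, against 12.8, 20.7 and 20.5 CPM in wild-type replicates 1 to 3 (log2FC 0.17 ± 0.24 SE, and −0.026 without wild-type replicate 1). Its highest value was in knockout replicate 1 and its lowest in wild-type replicate 1. The transcript model used for its length had no 3′ untranslated region, so its level per length is uncertain. Slc8a3 was at 7.68, 4.18 and 5.84 CPM in knockout replicates 1 to 3, against 2.02, 5.49 and 2.98 CPM in wild-type replicates 1 to 3. It had the largest positive fold change of the 45 genes, 0.75 ± 0.37 SE, with overlap through wild-type replicate 2 (edgeR adjusted p = 0.778). Its log2FC was 0.49 without wild-type replicate 1 and 1.22 without wild-type replicate 2. Slc8a2 was at 2.68, 3.10 and 3.49 CPM in knockout replicates 1 to 3, against 7.55, 4.17 and 3.12 CPM in wild-type replicates 1 to 3, with the highest value in wild-type replicate 1 (log2FC −0.66, and −0.22 without it).

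In store-operated entry, Stim1 and Orai3 led their families per length. Stim1, the gene of the main store sensor, was at 92.8, 82.8 and 85.3 CPM in knockout replicates 1 to 3, against 79.2, 82.5 and 76.8 CPM in wild-type replicates 1 to 3. The 3 knockout values lay just above the 3 wild-type values, by less than the spread within knockout (log2 fold change 0.13 ± 0.11 SE, edgeR adjusted p = 0.786). Stim2 was at 22.6 to 25.3 CPM in knockout and 24.1 to 25.2 CPM in wild type (log2FC −0.014 ± 0.12 SE). Stim1, Ryr2 and Trpm7 were the 3 of 45 genes (6.67%) whose groups did not overlap, all higher in knockout. Over all genes the groups did not overlap for 14.5%, and 6.95% were higher and 7.57% lower without overlap. Orai3 was at 51.8, 60.04 and 61.7 CPM in knockout replicates 1 to 3, against 55.6, 55.1 and 46.2 CPM in wild-type replicates 1 to 3 (log2FC 0.15 ± 0.13 SE). Orai1, the gene of the classical store-operated pore, was at 17.9, 21.7 and 18.8 CPM in knockout replicates 1 to 3, against 18.4, 17.3 and 16.5 CPM in wild-type replicates 1 to 3 (log2FC 0.16 ± 0.13 SE). Both genes had one or more wild-type values within the knockout range. Per length Orai3 made up 69.7% ± 1.34 in knockout and 69.6% ± 2.26 in wild type of the ORAI genes, and Orai2 was at 3.81 to 6.34 CPM in knockout and 3.45 to 7.07 CPM in wild type. The ratio of Stim1 to Orai1 per length was 2.35 ± 0.357 in knockout and 2.38 ± 0.128 in wild type.

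Among the TRP genes, Trpv2, Trpm4, Trpm7 and Trpc1 held nearly all of the signal per length, and the remaining channel genes were near the detection limit. Trpm7, the gene of a calcium and magnesium channel fused to a kinase and one of those with a miR-21 match shown above, lies on mm10 chromosome 2 from 126791565 to 126876230 and was at 96.5, 83.3 and 81.0 CPM in knockout replicates 1 to 3, against 48.3, 75.9 and 75.1 CPM in wild-type replicates 1 to 3. The groups did not overlap, and wild-type replicate 1 lay far below the other two wild-type libraries (log2 fold change 0.39 ± 0.18 SE, edgeR adjusted p = 0.778). Without it the log2 fold change was 0.20, so that library alone changed the value by over 1.5 times. Trpm4, the gene of a calcium-activated sodium channel, was at 56.0, 49.6 and 54.7 CPM in knockout replicates 1 to 3, against 33.3, 49.8 and 48.6 CPM in wild-type replicates 1 to 3 (log2FC 0.28 ± 0.16 SE, and 0.12 without wild-type replicate 1). Trpv2 was at 49.6, 56.8 and 48.4 CPM in knockout replicates 1 to 3, against 41.2, 54.4 and 56.5 CPM in wild-type replicates 1 to 3 (log2FC 0.024 ± 0.15 SE, and −0.10 without wild-type replicate 1), and Trpc1 at 23.7, 25.8 and 22.2 CPM in knockout replicates 1 to 3, against 17.4, 25.3 and 20.9 CPM in wild-type replicates 1 to 3 (log2FC 0.17 ± 0.16 SE, and 0.055 without wild-type replicate 1). Wild-type replicate 1 was the lowest library for all 3 of these genes, and the other two wild-type libraries lay within or near the knockout range. Trpc4ap was likewise lowest in wild-type replicate 1, at 121, 117 and 117 CPM in knockout replicates 1 to 3, against 86.7, 117 and 119 CPM in wild-type replicates 1 to 3 (log2FC 0.14, and 0.0058 without wild-type replicate 1).

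The other TRP genes were low. Trpm3 was at 0.961 to 2.65 CPM in knockout and 1.83 to 2.38 CPM in wild type (log2FC −0.25). Trpc6, a channel gene often studied in arterial muscle, was not tested, with 4, 11 and 9 counts in knockout and 4, 6 and 15 in wild type, nor was Trpv4, with 3, 7 and 7 counts in knockout and 6, 7 and 21 in wild type. Trpm5, Trpv1, Trpv6 and Trpc2 were not tested either and had at most 13 counts in any library. Trpc2 overlaps Xntrpc on the same strand, and its counts were not told apart from those of that gene here.

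No gene of the mitochondrial uniporter passed the test, and the groups overlapped for the genes described. Mcu, the gene of the pore, was at 24.1, 21.1 and 22.3 CPM in knockout replicates 1 to 3, against 20.9, 28.2 and 21.2 CPM in wild-type replicates 1 to 3 (log2FC −0.057 ± 0.15 SE). Micu2, the gene of one of its gatekeepers, was at 31.4, 27.8 and 32.9 CPM in knockout replicates 1 to 3, against 24.3, 37.1 and 37.6 CPM in wild-type replicates 1 to 3 (log2FC −0.11 ± 0.18 SE, and −0.28 without wild-type replicate 1). Wild-type replicate 1 was the lowest library for Micu2 and Mcu. Micu3 was at 10.999 to 14.9 CPM in knockout and 11.1 to 14.4 CPM in wild type (log2FC 0.033 ± 0.17 SE).

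Without wild-type replicate 1, 7 of 47 genes tested (14.9%) had an unadjusted p under 0.05 in edgeR, against 7.44% of all genes, and 0 passed after adjustment, against 0.0577% of all genes. The 5 higher in knockout (10.6%, background 3.68%) were the L-type pore genes Cacna1c and Cacna1d, the beta subunit gene Cacnb1 (log2FC 0.34), Itpr2 and Ryr2 (log2FC 0.35). The 2 lower (4.26%, background 3.77%) were Cacna1g and Micu2. The fitted mean was then higher for 26 of 47 genes, against 51.2% of all genes. The smallest adjusted p was 0.371, for Cacna1d. Ryr2 was the one gene of the 2 listed with all 6 libraries that stayed among them. In other edgeR fits Ryr2 dropped out of the unadjusted listing. These were the fits without knockout replicate 1, without knockout replicate 2, without wild-type replicate 2, and with a block for replicate number.

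Other genes of calcium signalling were taken from a list of 114 that held calmodulins, calcium-dependent kinases, calcineurin and NFAT genes, store proteins, further channels and exchangers, and phospholipases. Of these, 99 were listed in the table and 93 were tested, and 0 passed in edgeR over all genes (background 0%) or in DESeq2. At an unadjusted p under 0.05, 2 were higher and 4 lower in knockout, 6.45% in all, against 6.29% of all genes. The fitted mean was higher for 48 and lower for 45, with a median log2 fold change of 0.0041. Slc8b1, the gene of the mitochondrial sodium-calcium exchanger, was at 18.2, 19.9 and 18.6 CPM in knockout replicates 1 to 3, against 14.4, 14.7 and 13.8 CPM in wild-type replicates 1 to 3, with no overlap between the groups (log2 fold change 0.40 ± 0.12 SE, edgeR adjusted p = 0.680). Slc24a4, the gene of a potassium-dependent sodium-calcium exchanger, averaged 11.1 ± 1.16 CPM in knockout and 7.90 ± 1.33 CPM in wild type (log2 fold change 0.50 ± 0.18 SE, edgeR adjusted p = 0.775), also with no overlap.

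The 4 genes listed as lower were Ppp3cc, Rcan1, Nfatc2 and Mcub. Ppp3cc, a catalytic subunit gene of the phosphatase calcineurin, averaged 8.61 ± 1.026 CPM in knockout and 11.3 ± 0.579 CPM in wild type (log2 fold change −0.39 ± 0.15 SE, edgeR adjusted p = 0.775). Rcan1, which encodes a calcineurin regulator, averaged 79.2 ± 21.6 CPM in knockout and 114 ± 27.8 CPM in wild type (log2 fold change −0.53 ± 0.23 SE, edgeR adjusted p = 0.778), and Nfatc2, the gene of a transcription factor that calcineurin acts on, was at 0.404 to 0.890 CPM in knockout and 1.30 to 1.72 CPM in wild type (log2FC −1.24). The groups did not overlap for Ppp3cc and Nfatc2 and did for Rcan1. Mcub, the gene of an inhibitory uniporter subunit, averaged 1.24 ± 0.796 CPM in knockout and 2.49 ± 0.526 CPM in wild type (log2 fold change −0.998 ± 0.44 SE, edgeR adjusted p = 0.778), with overlap between the groups. None of the 6 passed the test over all genes.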

How the data were processed

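RNA of aortic smooth muscle cells was sequenced in 3 miR-21 knockout and 3 wild-type libraries. Per the labels' protocols, flash-frozen cells gave RNA by Trizol, and the library kit was Illumina TruSeq RNA. STAR 2.6, DESeq2 and the mm10 build are named in the submitters' processing notes; no source used here gives the counting tool or its strand setting. The authors deposited one table of expected counts, not normalised, a unit read from the values: 65.4% lay within 0.01 of a whole number. Gene ends are the deposited stop less 1, which equalled the GRCm38.p6 RefSeq end for 17 of 55 genes, where the stop as deposited did for 0, and positions are given 1-based (mm10). Rounded counts were filtered with filterByExpr, scaled with TMM factors and tested with edgeR 4.0.16 (glmQLFit and glmQLFTest, robust=TRUE, R 4.3.3), with 2-sided p-values adjusted by Benjamini-Hochberg over the 15185 genes and called under 0.05. The SE of a log2 fold change is its size over the root of F. DESeq2 1.42.0, limma voom (3.58.1), other scalings and filters, a replicate block and leaving out each library were alternatives. The fits were tested on simulated data. Transcript lengths and 3′ untranslated regions were those of GENCODE vM1 (NCBIM37, used for no coordinates); symbols were matched also through RefSeq synonyms. No block for replicate number entered the main test. Same-numbered replicates did not deviate together, but with 3 pairs this check cannot show whether they share more than a number. Every pair of libraries differed by more than counting noise. Members and lists were chosen with earlier results of these data known. The naming rule took the genes known from arterial smooth muscle, those with an unadjusted p under 0.05 and the 6 with the smallest p in each direction among those averaging at least 1 CPM; Casq1, Trpc4ap, Cacnb1, Cacna2d3, Cacna1a, Cacng4, Atp2b2 and the untested genes were named after their values were seen. Of the other calcium genes it took those with an unadjusted p under 0.05 and a mean of at least 1 CPM. Values of 2 of the 55 genes are not reported here. The counting depth limits genes under about 1 CPM.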

Additional observations from a re-analysis of the deposited data

How the results depend on the processing

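The count of 0 calcium-handling genes called, and of 0 other calcium genes called, held under every alternative run. Over all genes, DESeq2 called 69 and leaving out 1 library gave 0 to 9 calls in edgeR, with 9 without wild-type replicate 1 and 1 without wild-type replicate 2. The count of calcium-handling genes at an unadjusted p under 0.05 was 4 when library totals replaced the TMM factors, 5 in limma voom, and 1 to 7 when 1 library was left out, where it was 1 without knockout replicate 1 or 2, 7 without wild-type replicate 1 and 5 without wild-type replicate 3. Their median log2 fold change was 0.025 to 0.14 when 1 library was left out, lowest without wild-type replicate 1. With library totals 33 of the 45 had a higher fitted mean, and over all genes the unadjusted listing split into 643 higher and 376 lower in knockout, against 433 and 522 with TMM factors. In that setting, log2 fold changes near 0 changed sign, at 0.031 for Atp2a3, 0.031 for Atp2b1, 0.024 for Orai2, 0.026 for Stim2. Same-numbered knockout and wild-type libraries had deviations correlated at −0.27, −0.18 and −0.084, and no library correlated best with its own number. With 3 pairs, this check cannot show whether same-numbered libraries share more than a number. With the replicate block 0 genes were called, 2 calcium-handling genes (Cacna1d and Cacna1g) had an unadjusted p under 0.05, and the sign changed at 0.039 for Cacna1h, 0.016 for Orai2. Leaving out 1 library turned the sign of 16 of the 36 genes given every alternative, whose log2 fold changes then ran from −0.079 to 0.056 for Atp2a3, −0.11 to 0.061 for Atp2b1, −0.020 to 0.18 for Atp2b4, −0.11 to 0.43 for Atp2c1, −0.34 to 0.48 for Cacna1h, −0.015 to 0.16 for Cacna2d1, −0.040 to 0.099 for Cacnb3, −0.25 to 0.27 for Casq2, −0.13 to 0.10 for Mcu, −0.10 to 0.16 for Micu3, −0.22 to 0.30 for Orai2, −0.42 to 0.22 for Pln, −0.051 to 0.35 for Slc8a1, −0.040 to 0.040 for Stim2, −0.64 to 0.072 for Trpm3, −0.10 to 0.11 for Trpv2. The cause of these changes was not tested. Counts under about 1 CPM limit the low channel genes, and intervals for differences rest on 3 libraries per genotype.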
